A study of Mus musculus with 24 samples.

Results

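The proteasome subunit transcripts of mouse epididymal white fat were followed across 3 feeding regimes. The members were all array probes whose gene symbol is Psma, Psmb, Psmc or Psmd followed by digits only, leaving out the 3 immunoproteasome genes Psmb8, Psmb9 and Psmb10. This rule uses names and no measured value, and it found 36 genes, measured by 65 of the 45281 probes, among 19057 genes named on the array. The samples came from male C57BL6/J mice aged 8 months, on 40% dietary restriction (DR), on rapamycin in the food at 14 ppm (Rapa) or fed ad libitum (AL), with 8 samples in each group. The regimes were started at 2 months and had run for 6 months at sampling. Rapamycin inhibits mTOR complex 1, a nutrient-sensing kinase. Total RNA was labelled with biotin and hybridised to Illumina bead arrays, 1 array per sample. Nothing in the labels says whether every sample is a separate mouse. The p-values therefore reflect only how far these samples spread, which may be partly technical.

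The proteasome is the barrel-shaped protease that degrades proteins tagged with ubiquitin. Its core particle is built of alpha rings, which gate the entry, around beta rings, which hold the proteolytic sites. A regulatory cap with an ATPase base and a lid captures tagged proteins, removes the ubiquitin, unfolds the chain and feeds it into the core, and dedicated chaperones assemble the cap. In mammalian cells the transcription factor NRF1, encoded by Nfe2l1, is known to raise proteasome genes together when proteasome activity is short, and in brown fat it has been tied to the maintenance of proteasome activity in the cold.

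The promoter sequences that RefSeq gives for these genes (build GRCm38.p6, 250 bases before to 50 bases after the start) were searched on both strands for 3 motifs. Of the 36 genes, 29 matched an entry, giving 31 promoters of 300 bases. The antioxidant-type element TGACNNNGC, which NRF1 is known to bind, was present in 5 of the 31 promoters (16.1%), against 12.4% of all 32851 promoters of this length. These were the promoters of Psmb5, Psmb6, Psmc6, Psmd9 and Psmd12. The CCAAT box was present in 12 of the 31 (38.7%), against 37.4% of all promoters. The GC box GGCGGG was present in 22 of the 31 (71.0%), against 35.3% of all promoters. Matches of different motifs overlapped in 1 of the 31 promoters, and a match describes letters and not a bound site. The 5 promoters below are those of the catalytic subunits Psmb5 and Psmb6, of Psmd4 and Psmd5, on which the comparisons turn, and of Psmd13, the steadiest member. They lie at chr14:54617946-54618245 (minus strand), chr11:70525107-70525406 (plus), chr3:95042565-95042864 (minus), chr2:34870913-34871212 (minus) and chr7:140882144-140882443 (plus), in the order printed. Capitals mark the matched motifs.
Psmb5: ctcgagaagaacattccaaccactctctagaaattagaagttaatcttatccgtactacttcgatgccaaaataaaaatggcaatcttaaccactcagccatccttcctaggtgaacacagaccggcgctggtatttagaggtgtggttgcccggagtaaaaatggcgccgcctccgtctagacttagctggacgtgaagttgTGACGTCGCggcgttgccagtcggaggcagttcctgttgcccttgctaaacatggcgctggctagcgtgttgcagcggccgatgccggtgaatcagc
Psmb6: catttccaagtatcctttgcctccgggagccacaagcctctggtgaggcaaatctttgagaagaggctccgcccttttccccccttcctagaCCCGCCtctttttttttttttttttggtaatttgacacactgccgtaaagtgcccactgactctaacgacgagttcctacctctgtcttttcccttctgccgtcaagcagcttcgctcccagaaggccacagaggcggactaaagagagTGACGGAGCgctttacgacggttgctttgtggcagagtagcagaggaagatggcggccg
Psmd4: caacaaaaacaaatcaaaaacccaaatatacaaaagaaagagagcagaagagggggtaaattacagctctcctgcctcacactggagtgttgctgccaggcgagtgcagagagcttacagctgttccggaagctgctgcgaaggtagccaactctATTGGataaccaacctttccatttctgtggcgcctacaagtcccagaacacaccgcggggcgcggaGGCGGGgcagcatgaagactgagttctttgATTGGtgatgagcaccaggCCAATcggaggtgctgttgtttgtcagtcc
Psmd5: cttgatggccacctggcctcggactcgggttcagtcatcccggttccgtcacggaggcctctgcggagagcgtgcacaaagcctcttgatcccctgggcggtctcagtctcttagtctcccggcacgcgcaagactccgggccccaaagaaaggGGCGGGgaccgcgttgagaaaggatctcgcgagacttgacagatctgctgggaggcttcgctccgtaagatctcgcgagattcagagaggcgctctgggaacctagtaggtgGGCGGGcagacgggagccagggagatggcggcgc
Psmd13: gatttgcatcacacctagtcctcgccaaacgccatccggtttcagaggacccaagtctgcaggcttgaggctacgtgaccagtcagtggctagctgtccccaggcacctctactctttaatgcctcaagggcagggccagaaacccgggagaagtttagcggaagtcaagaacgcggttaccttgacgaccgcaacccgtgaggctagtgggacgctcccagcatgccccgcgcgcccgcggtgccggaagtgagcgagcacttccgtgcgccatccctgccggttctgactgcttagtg
The Psmb5 sequence carried 1 TGACNNNGC element, and the Psmb6 sequence carried 1 such element and 1 GC box. The Psmd4 sequence carried 3 CCAAT boxes and 1 GC box, the Psmd5 sequence 2 GC boxes, and the Psmd13 sequence none of the 3 motifs.

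The labels disagree on the tissue, since some fields name epididymal fat and others liver. Every array detected 13 of the 14 adipocyte markers. Only 1 of 15 hepatocyte markers was detected throughout, and 4, among them albumin (Alb) and fibrinogen beta (Fgb), were detected on 0 arrays. Transcripts of the neighbouring epididymis and testis were present on some arrays. The median log2 intensity over that marker list ran between 5.36 and 10.08 on DR arrays (median 8.16), between 4.67 and 11.30 on Rapa arrays (median 5.22) and between 4.64 and 6.20 on AL arrays (median 4.96). It exceeded 7 on the arrays of DR samples 1, 3, 5, 7 and 8 and Rapa samples 6 and 8. Of 14 measured macrophage markers, 4 were called lower and 0 higher in DR than in AL, with a median log2 change of -0.46. Of all genes, 11.7% were called in that comparison. In DR against Rapa, where 11.4% of all genes were called, 6 macrophage markers were lower and 0 higher (median -0.69). Of the 14 adipocyte markers, 4 were higher and 1 lower in DR than in Rapa (median 0.46). Of 4 measured skeletal muscle markers, 2 were lower and 0 higher in DR than in AL (median -1.06). Arrays also differed in brightness, with 75th percentiles of intensity between 17.5 and 78.9 in DR, 15.0 and 106.7 in Rapa and 24.8 and 111.7 in AL. Brightness followed the sample number in part. It was lowest on samples 1 and 5 of each group (between 15.0 and 29.8). Within each group it was highest on samples 2 and 6 (between 73.7 and 111.7). Samples 3 and 7 (between 32.6 and 80.7) and samples 4 and 8 (between 42.7 and 66.9) overlapped in brightness. These 4 pairs of sample numbers are called brightness classes below, and each group held 2 arrays of each. The classes were drawn from the sample numbers after the brightness was seen, and no label names them.

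Of the 65 member probes, 46 were detected on at least 8 arrays and kept, and 11 were detected on no array. The kept probes covered 28 of the 36 genes. The genes without a kept probe were Psma1, Psma3, Psma6, Psma8, Psmb11, Psmc6, Psmd2 and Psmd3. Psmb11 encodes the beta subunit of the thymus-type proteasome, and its probe was detected on 0 of 24 arrays. The 28 genes comprised 4 of 8 alpha ring genes, 7 of 8 beta ring genes, 5 of 6 base ATPases, 2 of 3 other base subunits, 7 of 8 lid genes and all 3 assembly chaperones of the cap that carry a Psmd name. Of the 28, 23 were detected on all 24 arrays. On a given array the median log2 intensity over the 28 genes was 10.03 to 10.46 in DR (median 10.30), 10.05 to 10.51 in Rapa (median 10.24) and 10.24 to 10.47 in AL (median 10.38), so the 3 groups overlapped widely.

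Whether 40% dietary restriction changed the proteasome transcripts was asked by setting DR against AL. None of the 28 genes was called at an adjusted p under 0.05 (limma, Benjamini-Hochberg over all kept probes), whereas 11.7% of the 9836 genes tested were called. At an unadjusted p under 0.05, 1 of the 28 genes passed (3.57%), against 25.2% of all genes. In whole tissue, fewer cells of a type and less RNA per cell cannot be told apart, so these are levels of the tissue. The changes of the 28 genes lay between -0.39 and 0.40 on the log2 scale, 15 above 0 and 13 below, with a median of 0.04 against -0.01 over all genes. The median size of change, whatever its sign, was 0.11 among the members and 0.23 among all genes. The 95% confidence interval of the change lay within 2-fold in either direction for all 28 genes, against 81.5% of all genes, and within 1.5-fold for 18 (64.3%), against 38.9%. On the 1 probe taken per gene and with this normalization, changes of 2-fold or more were thus outside each interval. The intervals of the other 10 genes reached past 1.5-fold in at least 1 direction. Other probes and other scalings were not covered by these intervals. Psmd6 and Psmd9, detected on 16 and 12 of 24 arrays, lay near background, where an intensity interval does not bound the change of the transcript.

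The same question was asked of rapamycin by setting Rapa against AL. None of the 28 genes was called by limma, but only 15 of the 9836 genes (0.153%) were called at all, each lower in Rapa. At an unadjusted p under 0.05, 2 members passed (7.14%), the lid subunits Psmd7 and Psmd12, against 9.61% of all genes. The changes lay between -0.36 and 0.35, with 9 genes above 0 and 19 below and a median of -0.07, against -0.01 over all genes. The median size of change was 0.13 among the members and 0.17 among all genes. All 28 confidence intervals lay within 2-fold, against 90.2% of all genes, and 17 (60.7%) lay within 1.5-fold, against 49.9%. The array of Rapa sample 4 had the fewest members above the AL mean, 3 of 28.

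Between the treatments, DR against Rapa, 1 of the 28 genes was called, the assembly chaperone Psmd5, which was higher in DR. Of all genes 11.4% were called, 5.88% higher and 5.54% lower in DR. At an unadjusted p under 0.05, 4 members passed (14.3%), Psmd5, Psmd4, Psmd12 and Psmb7, against 24.4% of all genes. All 4 had positive changes. The changes lay between -0.31 and 0.70 with a median of 0.08, against -0.01 over all genes, and 27 of 28 confidence intervals lay within 2-fold (96.4%), against 82.2%. The DR samples serve in both this comparison and DR against AL, and the Rapa samples in both this comparison and Rapa against AL.

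With quantile normalization, the median change of all genes was near 0 by construction. With median scaling of the arrays, the median change of all genes was -0.28 for DR against AL, -0.21 for Rapa against AL and -0.09 for DR against Rapa, and that of the members was -0.30, -0.35 and 0.04. The sign of the members' median thus changed with the scaling in DR against AL only, where it stayed near that of all genes. It was below that of all genes under both scalings in Rapa against AL (-0.07 against -0.01 with quantile normalization) and above it under both in DR against Rapa (0.08 against -0.01). These differences between medians were not tested.

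**Figure D1:**
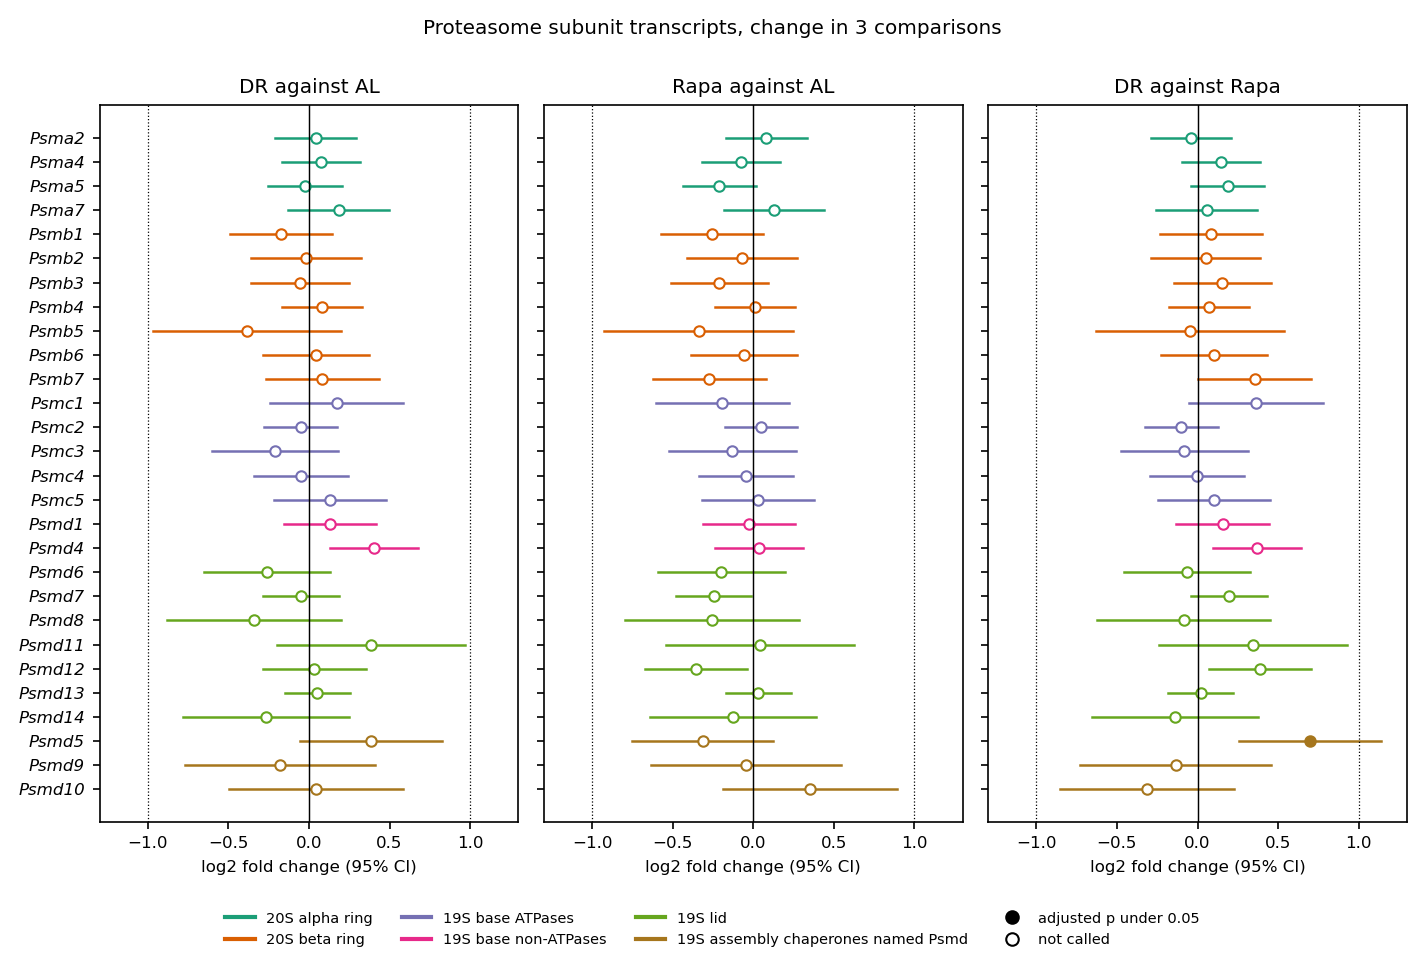
Log2 fold change of each of the 28 measured proteasome subunit genes (y axis, coloured by role) for DR against AL, Rapa against AL and DR against Rapa. Points are limma estimates, bars are 95% confidence intervals from 8 arrays a group, dotted lines mark 2-fold, and a filled point marks an adjusted p under 0.05. The only filled point is Psmd5 in DR against Rapa, at 0.70, and its interval alone extends past a dotted line.

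The alpha ring forms the gated entrance of the core, and 4 of its genes were measured. Psma2, Psma4, Psma5 and Psma7 changed by between -0.02 and 0.18 in DR against AL and by between -0.21 and 0.13 in Rapa against AL. None was called, and the lowest adjusted p values were 0.518 and 0.567. Psma5 had log2 intensities of 11.42, 11.75 and 11.85 in Rapa (lowest, median and highest) and of 11.62, 11.90 and 12.17 in AL. All 8 Rapa samples lay below the AL median, 3 of them below every AL sample, and the change of -0.21 ± 0.11 (SE) had an adjusted p of 0.567. The other kept Psma5 probe, detected on 9 of 24 arrays, changed by 0.18, of the other sign.

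Psma8, an alpha subunit of the proteasome of male germ cells in mice, was below detection on most arrays. Its better detected probe (ILMN_2757574) was detected on 6 of 24 arrays, those of DR sample 6, Rapa samples 5 and 6 and AL samples 4, 6 and 8, and its other probe on that of DR sample 6 only. The log2 intensities of the first probe were 4.65, 5.05 and 5.42 in DR, 4.67, 5.12 and 5.75 in Rapa and 4.71, 5.12 and 5.65 in AL, so the groups overlapped widely. The protamine transcript Prm1, made in spermatids, stood at 10.27 on the array of DR sample 5, 12.29 on that of Rapa sample 8 and 11.72 on that of AL sample 7, and Psma8 was not detected on any of those 3 arrays. On the array of Rapa sample 6, where Prm1 stood at 11.12, Psma8 was detected.

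The beta ring holds the 3 catalytic subunits. Psmb5, the subunit with chymotrypsin-like activity, had a dim probe, with log2 intensities of 5.34, 6.97 and 7.66 in DR, 6.26, 6.87 and 7.60 in Rapa and 6.29, 7.39 and 8.01 in AL. The groups overlapped over most of their range, and the lowest value, DR sample 5, was not above background. The change was -0.39 ± 0.29 (SE) in DR against AL (95% interval -0.97 to 0.20, adjusted p 0.460), -0.34 ± 0.29 in Rapa against AL (adjusted p 0.744) and -0.05 ± 0.29 in DR against Rapa (adjusted p 0.952). Without the 7 arrays whose epididymis and testis marker median exceeded 7, which left 3 DR, 6 Rapa and 8 AL samples, the DR against AL change was 0.09 and thus of the other sign.

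Psmb6, the subunit with caspase-like activity, had log2 intensities of 9.82, 10.74 and 11.17 in DR, 10.27, 10.65 and 10.78 in Rapa and 10.34, 10.69 and 10.89 in AL. The DR samples spread on both sides of the other groups. Its change was 0.04 ± 0.16 (SE) in DR against AL (interval -0.29 to 0.37, adjusted p 0.915) and -0.06 ± 0.16 in Rapa against AL (adjusted p 0.943). Its second probe gave -0.15 in DR against AL, of the other sign.

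Psmb7, the subunit with trypsin-like activity, was measured by 4 probes. On the probe with the highest mean it had log2 intensities of 10.77, 11.24 and 11.60 in DR, 10.08, 10.97 and 11.33 in Rapa and 10.71, 11.19 and 11.46 in AL. The DR and AL samples overlapped widely, and the lowest sample was Rapa sample 1. The change was 0.35 ± 0.17 (SE) in DR against Rapa (interval 0.0037 to 0.71, adjusted p 0.218) and 0.08 ± 0.17 in DR against AL (adjusted p 0.836). A second probe (ILMN_2836147) had 9.03, 9.58 and 9.93 in DR and 8.76, 9.01 and 9.44 in Rapa, a change of 0.53 that was called (adjusted p 0.0224). All 4 Psmb7 probes had positive changes in DR against Rapa, between 0.09 and 0.53. This second Psmb7 probe and that of Psmd5 were the 2 of 46 member probes called in this comparison, against 10% of all kept probes.

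The non-catalytic beta subunits Psmb1, Psmb2, Psmb3 and Psmb4 changed by between -0.17 and 0.08 in DR against AL and by between -0.26 and 0.01 in Rapa against AL, with none called. Psmb4 had log2 intensities of 11.85, 12.08 and 12.38 in DR, 11.70, 12.03 and 12.31 in Rapa and 11.67, 12.02 and 12.29 in AL. Its groups overlapped widely, and its changes were 0.08 ± 0.12 (SE) in DR against AL and 0.01 ± 0.12 in Rapa against AL.

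**Figure D2:**
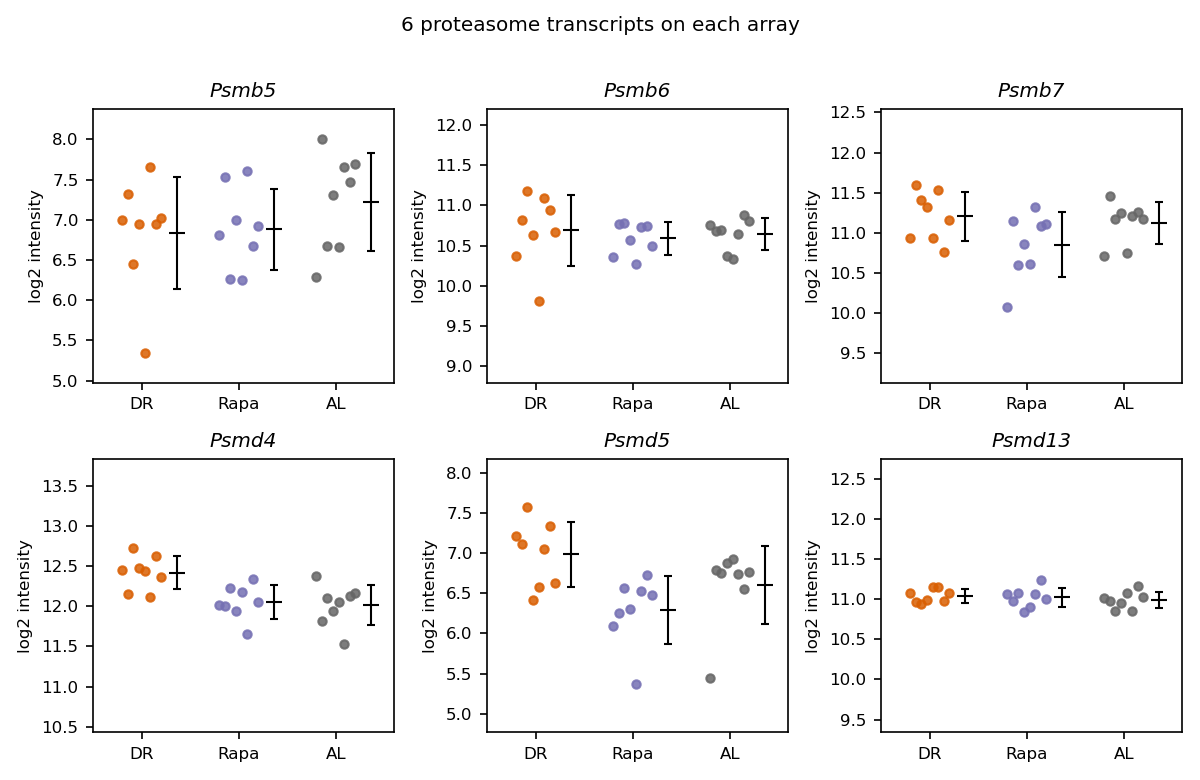
Log2 intensity of the catalytic subunits Psmb5, Psmb6 and Psmb7 and of Psmd4, Psmd5 and Psmd13 on each of the 24 arrays, with DR, Rapa and AL from left to right. Points are arrays, and the black bar beside them is the mean with its SD (n = 8); each panel spans the same range of the log2 axis. Psmd4 and Psmd5 sit highest in DR, with 8 of 8 DR samples above the Rapa median for each, while Psmd13 hardly varies.

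The base ATPases unfold the substrate and open the gate. Psmc1, Psmc2, Psmc3, Psmc4 and Psmc5 changed by between -0.21 and 0.17 in DR against AL, with 2 genes above 0 and 3 below, and by between -0.19 and 0.05 in Rapa against AL, again with none called. Psmc2 had log2 intensities of 11.52, 11.87 and 12.08 in DR, 11.76, 11.95 and 12.12 in Rapa and 11.66, 11.91 and 12.14 in AL. Its groups overlapped, and its interval for DR against AL, -0.28 to 0.17, was among the narrower of the members.

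Psmd4 encodes a ubiquitin receptor of the base, which binds ubiquitin chains. It is singled out here after its values were seen. Psmd4 had log2 intensities of 12.11, 12.44 and 12.72 in DR, 11.65, 12.03 and 12.34 in Rapa and 11.53, 12.07 and 12.38 in AL. All 8 DR samples lay above the AL median, 5 of them above every AL sample, and all 8 lay above the Rapa median, 6 of them above every Rapa sample. The means were 12.42 ± 0.21 in DR, 12.05 ± 0.21 in Rapa and 12.01 ± 0.25 in AL (SD, n = 8 each).

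The Psmd4 difference did not pass the test. The change was 0.40 ± 0.13 (SE) in DR against AL (interval 0.13 to 0.67, or 1.32-fold, unadjusted p 0.00541, adjusted p 0.0507) and 0.37 ± 0.13 in DR against Rapa (adjusted p 0.0799). Within the 4 brightness classes of sample numbers (1 and 5, 2 and 6, 3 and 7, 4 and 8) the DR minus AL difference was 0.23, 0.46, 0.56 and 0.36, and the DR minus Rapa difference was 0.35, 0.31, 0.39 and 0.42, positive in each. Over the 13 alternative settings tried, the adjusted p for DR against AL ran between 0.00307 and 0.847. With the brightness class as a block the adjusted p was 0.00307, and without any of AL sample 1, DR sample 2, DR sample 6 or Rapa sample 6 it was between 0.0259 and 0.0434. Without the 7 arrays high in epididymis and testis markers, 5 of them DR, the DR against AL change was 0.23 (adjusted p 0.565) and the DR against Rapa change 0.13. With median scaling it was 0.09 in DR against AL (adjusted p 0.847), against a shift of -0.28 in all genes. Psmd1, the scaffold of the base, changed by 0.13 ± 0.14 in DR against AL and by -0.03 ± 0.14 in Rapa against AL.

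The lid removes the ubiquitin from the tagged protein. Its measured genes, Psmd6, Psmd7, Psmd8, Psmd11, Psmd12, Psmd13 and Psmd14, changed by between -0.34 and 0.39 in DR against AL, 3 above 0 and 4 below, and by between -0.36 and 0.04 in Rapa against AL, 2 above 0 and 5 below, with none called in either. Psmd14, the deubiquitinase of the lid, had log2 intensities of 7.08, 8.25 and 8.58 in DR, 6.98, 8.21 and 8.93 in Rapa and 7.42, 8.43 and 8.73 in AL, which overlapped widely.

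The lid subunits Psmd12 and Psmd7 were the 2 members past an unadjusted p of 0.05 in Rapa against AL. Psmd12, a structural lid subunit, had 8.62, 9.13 and 9.43 in Rapa and 9.04, 9.51 and 9.69 in AL, and 8 of 8 Rapa samples lay below the AL median, 3 of them below every AL sample. The change was -0.36 ± 0.16 (SE, interval -0.67 to -0.04, unadjusted p 0.0301, adjusted p 0.470). Psmd7, the partner of Psmd14, had 9.35, 9.89 and 10.05 in Rapa and 9.88, 10.11 and 10.15 in AL, with all 8 Rapa samples below the AL median. Its change was -0.25 ± 0.11 (interval -0.48 to -0.01, unadjusted p 0.0406, adjusted p 0.508). Of the 3 kept Psmd7 probes, the others changed by -0.03 and 0.15, so lower Psmd7 was seen on this probe only. The other kept Psmd12 probe changed by -0.19. Neither gene passed the adjusted threshold in Rapa against AL under any of the 13 alternatives.

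Psmd12 also stood lower in Rapa than in DR, where its log2 intensities were 8.72, 9.58 and 9.75. The lowest DR value was that of sample 5, far below the next at 9.37. The DR against Rapa change was 0.39 ± 0.16 (SE, adjusted p 0.121), and without DR sample 5 it was 0.50 with an adjusted p of 0.0199.

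Psmd5 encodes a chaperone that binds an ATPase of the base during assembly of the cap and is absent from the finished particle. Psmd5 had log2 intensities of 6.41, 7.08 and 7.57 in DR, 5.37, 6.39 and 6.72 in Rapa and 5.44, 6.76 and 6.92 in AL. All 8 DR samples lay above the Rapa median and 5 lay above every Rapa sample, and the lowest Rapa value, that of sample 5, was not above background. The means were 6.99 ± 0.41 in DR, 6.29 ± 0.42 in Rapa and 6.60 ± 0.48 in AL (SD, n = 8 each). The change was 0.70 ± 0.21 (SE) in DR against Rapa, 1.62-fold (interval 0.26 to 1.14, adjusted p 0.0352). It was 0.38 ± 0.21 in DR against AL (adjusted p 0.294) and -0.31 ± 0.21 in Rapa against AL (adjusted p 0.665).

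Within the 4 brightness classes the DR minus Rapa difference of Psmd5 was 1.16, 0.69, 0.81 and 0.13, positive in each. The call rested on single arrays and on the scaling. Without any of DR samples 1, 2, 3, 6 or 7 or Rapa samples 1, 2, 4 or 5 the adjusted p was between 0.0520 and 0.0821, with changes between 0.57 and 0.70. With median scaling the change was 0.48 (adjusted p 0.722), and without the 7 arrays high in epididymis and testis markers it was 0.64 (adjusted p 0.216). Psmd5 was still called without the 10 arrays whose marker median exceeded 6. That fit held 2 DR, 5 Rapa and 7 AL samples. Over the alternatives that kept the probe and the log2 scale the change stayed between 0.48 and 0.96 on the log2 scale, with adjusted p values between 0.00931 and 0.722. The authors' processed values, on their own scale, gave 0.23 (adjusted p 0.164). Of the 12 alternatives that kept the probe, 5 ended the call.

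The other chaperones of the cap were Psmd9, near background, and Psmd10, also called gankyrin. Psmd10 had log2 intensities of 9.0, 9.29 and 10.71 in DR, 9.04, 9.66 and 11.40 in Rapa and 9.19, 9.43 and 9.93 in AL. Its 3 highest values came from Rapa sample 8, DR sample 5 and Rapa sample 6, which are also 3 of the 7 arrays with an epididymis and testis marker median over 7, and on which Prm1 stood at 12.29, 10.27 and 11.12. On the other 4 of those 7 arrays Psmd10 stood at 9.89 in DR sample 1, 9.19 in DR sample 3, 9.20 in DR sample 7 and 9.83 in DR sample 8, all within the range of the AL samples or at its lower edge. On these 4 arrays Prm1 stood at 7.03, 5.52, 5.75 and 9.61 in the same order, below its values on the 3 arrays highest in Psmd10. AL sample 7, with Prm1 at 11.72 but a marker median under 7, had Psmd10 at 9.42. A high marker median thus went with high Psmd10 on some arrays and not on others. Prm1 was high on all 3 arrays highest in Psmd10, but also on that of AL sample 7. The DR against Rapa change was -0.31 ± 0.26 (SE, adjusted p 0.545), and with the marker median as a covariate Psmd10 and Psmd12 were the members called, Psmd10 lower and Psmd12 higher in DR. Beyond that covariate, the part of the neighbouring tissue in the Psmd10 level was not tested.

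**Figure D3:**
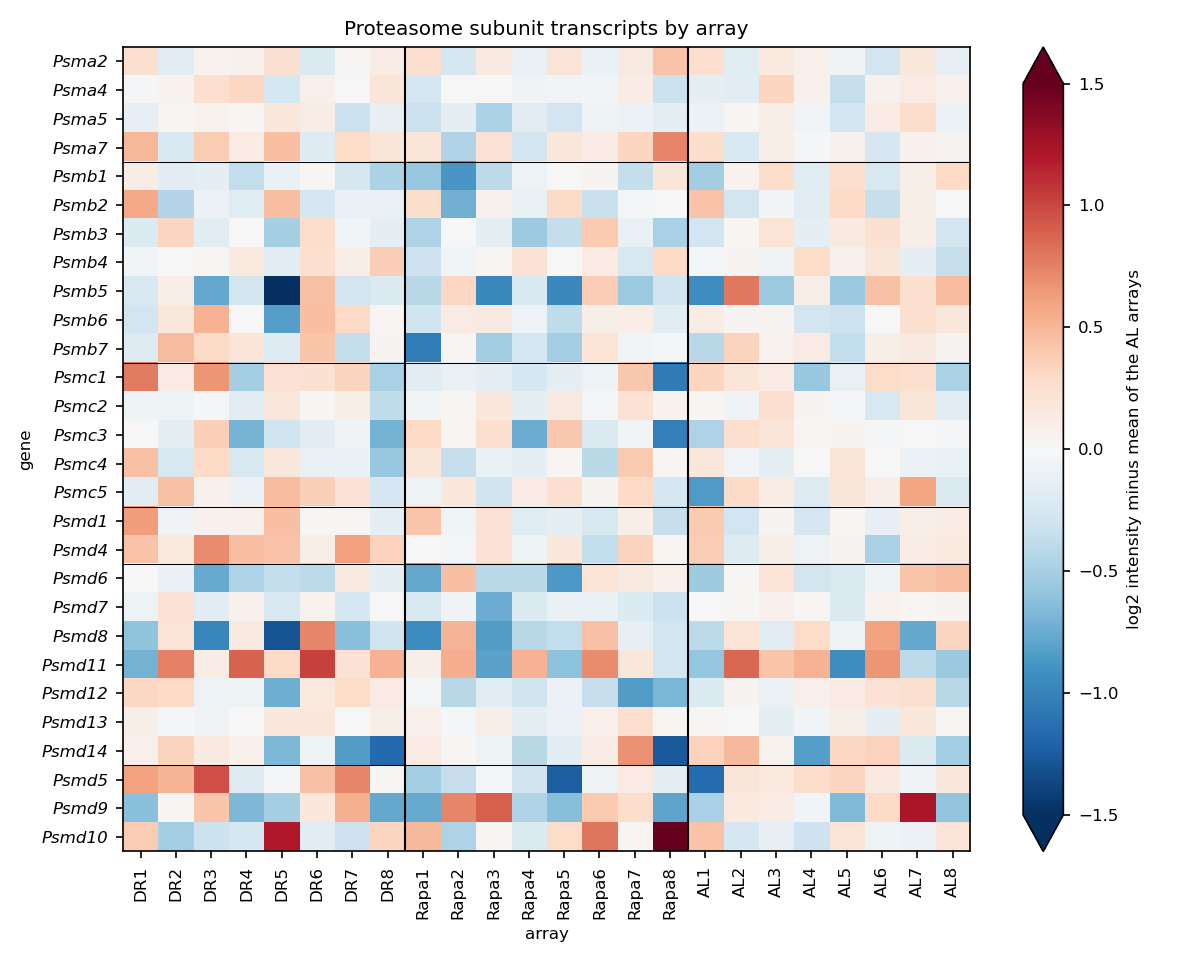
Log2 intensity of each of the 28 genes on each array, minus the mean of the 8 AL arrays for that gene (colour), with arrays in columns (DR, Rapa, AL from left to right) and genes in rows, separated by role. No role is of one colour across a whole group, but some single rows are. Psmd4 lies above the AL mean on all 8 DR arrays, and Psma5, Psmd7 and Psmd12 lie below it on all 8 Rapa arrays. Each row shows only the gene's kept probe with the highest mean. The strongest single cells include Psmd10 on Rapa sample 8 and Psmb5 on DR sample 5.

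At the median, the measured subunits varied less between arrays of the same group than all genes did. The median within-group SD over the 28 genes was 0.29 on the log2 scale, against 0.40 over all 9836 genes. Among genes detected on all arrays it was 0.28 for the 23 members and 0.36 for all 6141 genes. Of the 28, 20 had an SD below the median of all genes and 7 were in the lowest 5%. Psmd13, a lid subunit, had an SD of 0.10, and 1 of the 9836 genes had a lower one. Its log2 intensities were 10.94, 11.03 and 11.15 in DR, 10.84, 11.03 and 11.24 in Rapa and 10.85, 10.99 and 11.16 in AL. All 24 arrays thus fell in a narrow band, and the changes were 0.05 ± 0.10 (SE) in DR against AL, 0.03 ± 0.10 in Rapa against AL and 0.02 ± 0.10 in DR against Rapa. Psmc2, Psma5 and Psmd7 followed with SDs of 0.15, 0.16 and 0.17. At the other end, Psmb5, Psmd11 and Psmd9, which had dim probes, had SDs of 0.61, 0.60 and 0.61. Psmd8, Psmd10 and Psmd14, detected on all 24 arrays, had SDs of 0.55, 0.56 and 0.53. The members were not compared with genes of like brightness, so the part of brightness in the small SDs was not tested.

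**Figure D4:**
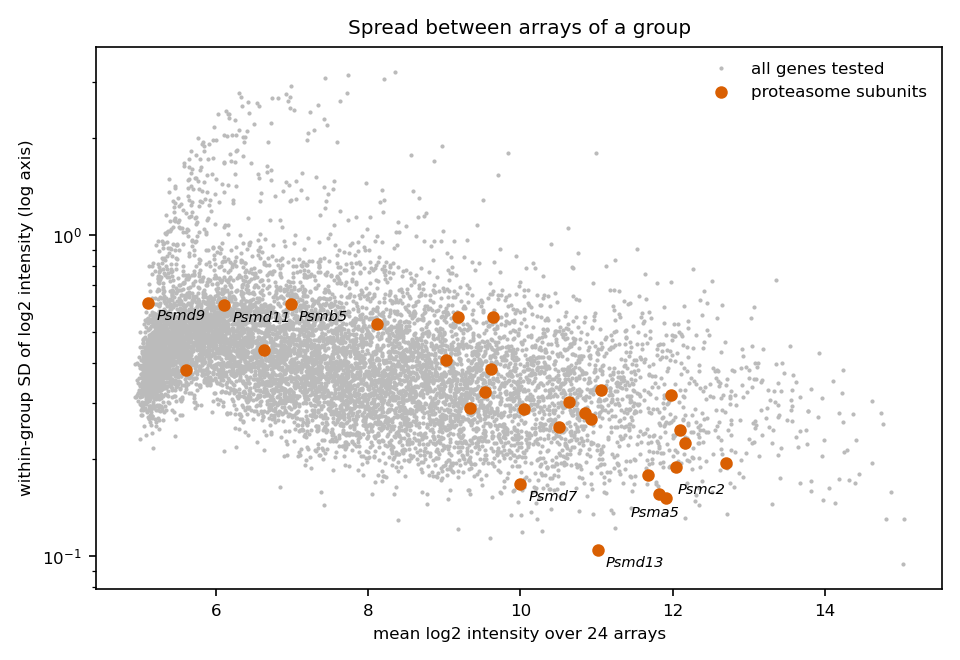
Within-group SD of log2 intensity (y axis, log scale) against mean log2 intensity over the 24 arrays (x axis) for all 9836 genes tested (grey) and for the 28 proteasome subunit genes (orange). Psmd13 lies at 0.10, near the lower edge of the cloud, and the dim members Psmb5, Psmd9 and Psmd11 lie near 0.6.

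Probes for the same subunit did not always give the same sign. Of 13 member genes with several kept probes, all probes had the same sign in 6 for DR against AL, in 6 for Rapa against AL and in 9 for DR against Rapa.

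Genes that work with the proteasome were taken from 8 lists. Of all genes tested, 11.7% were called in DR against AL, 0.153% in Rapa against AL and 11.4% in DR against Rapa. The counts of called genes in these short lists are to be read beside those shares, and whether they differ from them was not tested. The immunoproteasome subunits Psmb8, Psmb9 and Psmb10, which replace the catalytic subunits in immune cells and under interferon, changed by -0.34, -0.33 and -0.35 in DR against AL and by -0.12, -0.38 and -0.20 in Rapa against AL, with 0 of 3 called. Of these, only Psmb8 passed an unadjusted p of 0.05, in DR against AL (0.0383, adjusted p 0.185). Macrophage markers had a median change of -0.46 in the same comparison and of 0.10 in Rapa against AL, and their part in these values was not tested. The 4 measured proteasome activators, the 4 chaperones of core assembly and the 5 further cap subunits and bound factors also had no member called in any comparison.

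The E1 enzyme Uba6, which activates ubiquitin and the ubiquitin-like modifier FAT10, was the only measured gene of the ubiquitin and E1 list and was lower in DR than in AL. It had log2 intensities of 9.10, 9.35 and 10.10 in DR, 9.0, 9.72 and 10.16 in Rapa and 9.91, 10.49 and 10.87 in AL. Of the DR samples, 7 of 8 lay below every AL sample. The change was -0.98 ± 0.18 (SE) in DR against AL, 0.506-fold (interval -1.35 to -0.61, adjusted p 5.36e-04). It was -0.75 ± 0.18 in Rapa against AL, with 5 of 8 Rapa samples below every AL sample (unadjusted p 2.88e-04, adjusted p 0.0914), and -0.23 ± 0.18 in DR against Rapa (adjusted p 0.502). The DR against AL call was kept under all 13 alternatives, with log2 changes between -1.34 and -0.82, and in all 24 fits that left out 1 array.

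Of 5 measured ubiquitin ligases linked to muscle atrophy, 1 was called, Fbxo21, an F-box protein that FOXO factors raise in atrophying muscle of mice. Fbxo21 had log2 intensities of 11.09, 11.69 and 11.96 in DR, 9.61, 10.69 and 11.22 in Rapa and 9.93, 10.63 and 11.89 in AL. All 8 DR samples lay above both other medians, and 7 lay above every Rapa sample. The change was 1.09 ± 0.26 (SE) in DR against Rapa (adjusted p 0.00595) and 0.86 ± 0.26 in DR against AL (adjusted p 0.0299). The DR against Rapa call held in all 24 fits that left out 1 array, whereas the DR against AL call was lost in 8, those without AL samples 2, 3, 6 or 7 or DR samples 1, 3, 7 or 8 (adjusted p 0.0501 to 0.0699). Without the 7 arrays high in epididymis and testis markers the changes were 0.53 in DR against Rapa (adjusted p 0.364) and 0.58 in DR against AL (adjusted p 0.404). With the macrophage marker median as a covariate they were 0.85 (adjusted p 0.0549) and 0.62 (adjusted p 0.227). Of the 13 alternatives, 3 ended the DR against Rapa call and 5 the DR against AL call, among them median scaling (0.55, adjusted p 0.134) and no filter on dim probes (adjusted p 0.0730).

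Of 6 measured shuttle and p97 genes, Nploc4, a cofactor of the p97 unfoldase, was higher in DR than in AL. It had 7.72, 8.05 and 8.63 in DR and 7.05, 7.75 and 7.94 in AL, a change of 0.46 (adjusted p 0.0415). Of 4 measured genes of the NRF1 pathway, Syvn1, a ubiquitin ligase of the endoplasmic reticulum, was higher in DR than in Rapa. It had 11.02, 11.27 and 11.40 in DR and 10.45, 10.85 and 11.17 in Rapa, a change of 0.38 (adjusted p 0.0458). Both lay close to the threshold, and 7 of 13 alternatives ended the call for Nploc4 and 5 of 13 for Syvn1. The Nploc4 call was also lost without DR samples 1, 2, 4, 6 or 8 or AL samples 2, 5, 6 or 8 (adjusted p 0.0515 to 0.0973). The Syvn1 call was lost without DR samples 1, 2, 3, 5 or 6, Rapa samples 1, 2, 3, 4, 6 or 7 or AL samples 2, 3, 4, 6, 7 or 8 (adjusted p 0.0503 to 0.0987). Nfe2l1, which encodes NRF1 itself, averaged 10.83 ± 0.37 in DR and 11.24 ± 0.29 in AL (SD, n = 8 each), a change of -0.41 ± 0.17 that was not called (adjusted p 0.127).

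**Figure D5:**
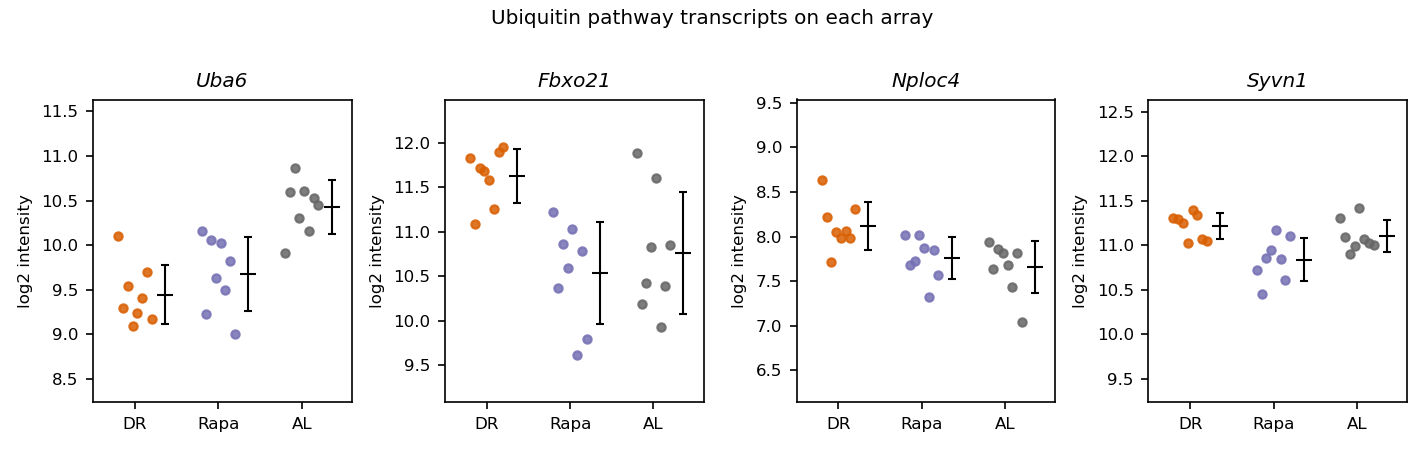
Log2 intensity of Uba6, Fbxo21, Nploc4 and Syvn1 on each array, with DR, Rapa and AL from left to right, points for arrays and the mean with its SD beside them (n = 8); each panel spans the same range of the log2 axis. For Uba6, 7 of 8 DR samples sit below every AL sample, and for Fbxo21, 7 of 8 DR samples sit above every Rapa sample.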

How the data were processed

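Gene expression was measured in 24 samples of mouse epididymal fat, 8 per group, on Illumina arrays. The deposited intensities are background-subtracted and not normalized between arrays, as the share of values below 0 and the unequal brightness of the arrays show, while the scanner settings were not given in the sources available. Per the file headers, detection p-values were deposited beside the intensities. The authors' processed score was found, by comparison with the intensities, to equal log(intensity + constant) standardised within each array (constants 99.0 to 188.8, largest deviation 0.00177, column medians -0.42 to -0.32). The log base of that score is unknown, and it was used as an alternative. Its direction and centring follow from this form.

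Intensities were corrected and quantile-normalized with neqc (limma 3.58.1, R 4.3.3, offset 16) and put on the log2 scale. Only the 17165 probes that 8 or more arrays detected at a p under 0.05 were used. The platform annotation gave 1 symbol to 34885 probes, several to 18 and listed none for 10378, and 0 symbols needed an update. A gene is its kept probe with the highest mean (9836 genes). A single limma model of group means (lmFit, eBayes, 21 residual degrees of freedom) gave changes, two-sided tests and 95% intervals, with Benjamini-Hochberg adjustment over all kept probes and calls at an adjusted p under 0.05. The number of arrays limits the precision. The statistics were tested on simulated data. No array repeated another (correlations across probes 0.847 to 0.983, 0 identical).

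Values per sample are given for members called, at most the 12 with the smallest p in a comparison, and for Psmb5, Psmb6, Psmb7 and Psma8 whatever their values. Other members given by their values in some or all groups (Psma5, Psmb4, Psmc2, Psmd4, Psmd7, Psmd10, Psmd12, Psmd13 and Psmd14) were chosen after their values were seen. So was Nfe2l1, given by its DR and AL means. Of the 8 pathway lists, called genes are named. The members, lists and markers were chosen with earlier results of these data known. Sample numbers were not taken to pair the samples, since the labels state no pairing. Figures were drawn with matplotlib 3.10.9.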

Additional observations from a re-analysis of the deposited data

Results flagged for a closer look

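In 7 of the 84 sets of 8 values (28 genes in 3 groups), 1 sample stood apart from the others by more than the 95% limit of Dixon's test, which chance alone passes in about 1 of 20 sets. Psmc1 was low in Rapa sample 8, at a log2 intensity of 7.96. Psmd12 was low in DR sample 5, at 8.72. Psmd7 was low in Rapa sample 3, at 9.35, and in AL sample 5, at 9.88. Psmd5 was low in Rapa sample 5, at 5.37, and in AL sample 1, at 5.44, and Psmc3 was low in AL sample 1, at 9.26. All 7 were low values. Rapa sample 8 and DR sample 5 are among the arrays with an epididymis and testis marker median over 7, and whether that bears on their low values was not tested.

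For Psmd5 the change under DR and the change under Rapa, each against AL, differed by 0.70 on the log2 scale. This difference was tested by the DR against Rapa comparison itself (limma, adjusted p 0.0352), with all 8 DR samples above the Rapa median.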

How the results depend on the processing

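Results were recomputed under 13 alternatives and with each of 24 arrays left out. The slide could not be used as a block, since the file headers do not give it, and that alternative was not run. The brightness class as a block and the limit of 7 on the epididymis and testis marker median were chosen after seeing the data. For Rapa against AL, 0 of the measured members were called under every one of these settings. For DR against AL the count was 1, Psmd4, against 0 in the analysis as reported, with an offset of 50, with detection at p under 0.01 on all arrays, with the mean of a gene's probes, with arrayWeights, with the replicate number as a block and with the brightness class as a block, and 0 to 1 without 1 array. For DR against Rapa the count was 0 with median scaling, with the authors' values and without a filter, and 0 to 2 without 1 array. It was 2, Psmd4 and Psmd5, with an offset of 50 and with the replicate number as a block. It was 2 with the mean of probes (Psmb7, Psmd5) and with arrayWeights (Psmd12, Psmd5). It was 2 with the epididymis and testis (Psmd10, Psmd12) or the macrophage marker median (Psmd10, Psmd5) as a covariate, with Psmd10 lower in DR. With the brightness class as a block it was 3, Psmd4, Psmb7 and Psmd5. With detection at p under 0.01 on all arrays, which left out the Psmd5 probe, it was 1, Psmd4. Without the arrays over a marker median of 6 it was 1, Psmd5. Without the arrays over a marker median of 7 it was 1, Psmb7 (0.75, adjusted p 0.0493) and no longer Psmd5. The calls over all genes also moved with the setting. In DR against Rapa they were 1123 as reported, 284 with median scaling, 1081 with the authors' values and 927 without a filter. They were 1203 with an offset of 50 and 1887 with the brightness class as a block. In DR against AL they were 1150 as reported, 1235 with an offset of 50 and 1953 with that block. The cause of these changes in the counts was not tested.

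Signs turned for changes that did not pass the test. Psmb5 in DR against AL was 0.14 and 0.091 without the arrays over a marker median of 6 and of 7. Psmb5 in DR against Rapa was 0.10 with arrayWeights, 0.72 and 0.56 without those arrays, 0.034 and 0.30 with the epididymis and testis or the macrophage marker median as a covariate, and -0.16 to 0.17 without 1 array. Psmb6 in DR against AL was -0.31 with median scaling, -0.052 with the mean of probes and -0.027 to 0.17 without 1 array. Median scaling moved the median of all genes to -0.28 in DR against AL and -0.21 in Rapa against AL, and under it Psmb7 in DR against AL was -0.26 and Psmd4 in Rapa against AL was -0.25, and the last was -0.034 to 0.092 without 1 array.

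Same-numbered arrays deviated together more often than others: the correlation of their deviations from group means was -0.07 to 0.55 (median 0.23), over 0.1 in 19 of 24 pairs, against a median of -0.08 and 29 of 144 pairs of arrays whose numbers were neither equal nor 4 apart. This is a hint from the data and not from the labels. Arrays whose numbers were 4 apart had a median correlation of 0.135, over 0.1 in 18 of 24 pairs, and so also deviated together. Of the 24 arrays, 9 correlated best with an array of their own number. The labels state no pairing, so the numbers were not taken to pair the samples. With the replicate number as a block the calls over all genes were 1886, 121 and 1765 for DR against AL, Rapa against AL and DR against Rapa, against 1150, 15 and 1123 without it, and the adjusted p of Psmd4 in DR against AL was 0.00579. Over all alternatives the calls over all genes ran from 249 (without arrays over a marker median of 6) to 1953 for DR against AL, from 3 (median scaling) to 154 for Rapa against AL and from 284 (median scaling) to 1887 for DR against Rapa, with the highest of each under the brightness class as a block. Dim probes, such as those of Psmb5, Psmd5, Psmd9 and Psmd11, and the 8 subunit genes without a kept probe limit what was measurable.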
